A study of Homo sapiens with 6 samples.

Results

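The genes described here are 8 CXC chemokine genes that lie together on the long arm of human chromosome 4, namely CXCL8, CXCL6, CXCL1, CXCL5, CXCL3, CXCL2, CXCL10 and CXCL11. They were taken by name from the 19755 protein-coding genes of the series, and each name had 1 gene identifier. The first 6 genes (CXCL8, CXCL6, CXCL1, CXCL5, CXCL3 and CXCL2) encode neutrophil-attracting chemokines, and CXCL10 and CXCL11 encode interferon-type chemokines. RNA-seq was run on 6 libraries of EA.hy926 cells, an established endothelial hybrid line made by fusing a human umbilical vein endothelial cell with the lung carcinoma line A549. Because the titles also speak of human umbilical vein endothelial cells (HUVECs), the labels leave the exact cell type unsettled. The LPS group holds 3 libraries of cells given 1000 ng/ml lipopolysaccharide (LPS), a bacterial cell wall component sensed through TLR4, over 12 h. The control group has 3 libraries, also labelled 12 h, with WT in the genotype field, where the LPS libraries carry LPS-induced. The treatment field reads Sepsis in both groups, so the groups rest on the titles. All cells were grown in DMEM with serum and antibiotics. No label ties the replicates to separate cultures. The p-values therefore reflect library-to-library spread that may be technical.

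CXC chemokines are small secreted proteins that direct leukocyte movement through G protein-coupled receptors. Members with the amino acids glutamate, leucine and arginine (ELR) before the paired cysteines act on CXCR1 and CXCR2 of neutrophils. CXCL10 and CXCL11 lack ELR, act on CXCR3 of activated T cells and natural killer cells, and are classical targets of interferon signalling. Endothelial cells are known to make both kinds when exposed to inflammatory stimuli, with NF-kB driving the neutrophil-attracting genes.

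The coding bases that set the classes apart are shown first, because the comparison of the classes rests on them. The stretches were read from GENCODE 29 transcripts, run 5′ to 3′ over 15 codons around the Cys-X-Cys motif, and carry the ELR codons in capitals where ELR directly precedes the first of those cysteines.
CXCL8: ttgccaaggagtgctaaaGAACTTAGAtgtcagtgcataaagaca
CXCL6: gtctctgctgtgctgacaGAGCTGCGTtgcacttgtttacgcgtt
CXCL1: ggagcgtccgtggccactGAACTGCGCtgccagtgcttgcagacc
CXCL5: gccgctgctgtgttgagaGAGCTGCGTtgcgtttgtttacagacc
CXCL3: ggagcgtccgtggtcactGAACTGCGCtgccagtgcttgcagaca
CXCL2: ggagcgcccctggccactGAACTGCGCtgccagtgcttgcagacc
CXCL10: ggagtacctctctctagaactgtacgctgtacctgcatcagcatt
CXCL11: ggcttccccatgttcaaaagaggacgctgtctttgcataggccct
The ELR codons stood there in all 6 neutrophil-attracting genes and in neither interferon-type gene. CXCL1, CXCL2 and CXCL3 are near copies of each other. Their coding sequences were 94.4% identical between CXCL3 and CXCL2, 93.5% between CXCL1 and CXCL2 and 90.7% between CXCL1 and CXCL3. Of the 50-base windows of the CXCL1 transcript, 5.73% also occurred in CXCL2 and 0.573% in CXCL3, and of those of the CXCL3 transcript 5.26% occurred in CXCL2. Reads from such windows can be assigned to either gene, so the levels of these 3 genes are uncertain, and how many reads were affected was not measured. CXCL6 and CXCL5 were 87.4% identical in coding sequence and shared no such window.

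The promoters are shown because all 8 genes carry 1 match to the same NF-kB-type motif. The 100 bases before the RefSeq transcription start (250 for CXCL10, to reach its interferon motif) are given on the gene's own strand, from GRCh38.p14. Capitals mark GGANNTTCC, the NF-kB-type motif searched on both strands, and in CXCL10 also GAAA followed by any 2 bases and GAAA again, the letters of an interferon-stimulated response element.
CXCL8 (chr4:73740469-73740568, plus strand): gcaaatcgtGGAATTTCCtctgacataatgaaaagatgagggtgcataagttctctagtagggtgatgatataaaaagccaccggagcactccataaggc
CXCL6 (chr4:73836578-73836677, plus strand): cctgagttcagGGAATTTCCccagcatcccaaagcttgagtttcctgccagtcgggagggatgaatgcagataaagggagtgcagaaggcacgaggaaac
CXCL1 (chr4:73869293-73869392, plus strand): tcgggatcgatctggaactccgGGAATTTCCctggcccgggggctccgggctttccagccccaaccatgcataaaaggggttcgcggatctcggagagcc
CXCL5 (chr4:73998678-73998777, minus strand): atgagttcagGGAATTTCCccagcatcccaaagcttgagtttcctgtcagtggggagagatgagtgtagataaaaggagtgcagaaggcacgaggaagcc
CXCL3 (chr4:74038690-74038789, minus strand): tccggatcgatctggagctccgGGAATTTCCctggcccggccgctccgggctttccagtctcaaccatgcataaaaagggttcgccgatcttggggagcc
CXCL2 (chr4:74099196-74099295, minus strand): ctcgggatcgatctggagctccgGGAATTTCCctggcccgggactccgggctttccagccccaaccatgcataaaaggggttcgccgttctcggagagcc
CXCL10 (chr4:76023498-76023747, minus strand): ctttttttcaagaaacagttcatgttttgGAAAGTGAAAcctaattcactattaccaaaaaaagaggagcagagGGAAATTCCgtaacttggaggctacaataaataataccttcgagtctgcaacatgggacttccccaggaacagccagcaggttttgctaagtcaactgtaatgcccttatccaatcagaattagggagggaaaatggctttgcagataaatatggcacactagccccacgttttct
CXCL11 (chr4:76036071-76036170, minus strand): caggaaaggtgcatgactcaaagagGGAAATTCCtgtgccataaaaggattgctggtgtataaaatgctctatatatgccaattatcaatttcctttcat
The 6 neutrophil-attracting genes had the same 9 letters, GGAATTTCC, and CXCL10 and CXCL11 had GGAAATTCC. Each of these letters matches the motif on both strands at the same place. Within 250 bases before the start, the NF-kB-type letters occurred in 3.84% of 35116 RefSeq promoters and the interferon-type letters in 3.02%. Among the members the interferon-type letters were found in CXCL10 alone, and the AP-1-type letters TGANTCA, present in 6.57% of promoters, in CXCL8 and CXCL11. A match describes the letters only. The promoters of CXCL1 and CXCL3 were 81.4% identical over 250 bases, and those of CXCL6 and CXCL5 85.3%.

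Levels are FPKM, which divides the fragments of a gene by its length and by the size of the library, as calculated by the authors, so they may be compared between genes. FPKM keeps no read depth, so the depth behind each value is unknown. Summed FPKM of protein-coding genes lay between 256047 and 264878 per library. Endothelial markers were present, 8 of 8 averaging 0.5 FPKM or more, with summed levels of 354 to 427 FPKM in LPS libraries and 287 to 386 FPKM in control libraries. Of 8 leukocyte markers 1 reached that level, PTPRC and CD3E were listed at 0 in all libraries, and the list summed to 4.72 to 6.80 FPKM in LPS libraries and 3.81 to 7.80 FPKM in control libraries. Epithelial markers summed to 72.4 to 88.1 FPKM in LPS libraries and 107 to 120 FPKM in control libraries, and all 6 fibroblast markers were present, at 3344 to 3709 FPKM in LPS libraries and 3364 to 3758 FPKM in control libraries. The part of these other cell markers in the chemokine levels was not tested.

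The cells carried abundant neutrophil-attracting chemokine mRNA without LPS, and CXCL1 was the only tested member whose LPS values all lay above its control values. CXCL8 and CXCL5 were the most abundant members, CXCL2, CXCL1, CXCL3 and CXCL6 stood well below them, and CXCL10 and CXCL11 were close to 0 in every library. Each gene was tested between LPS and control libraries with limma on log2(FPKM + 0.5), fitted over the 12068 protein-coding genes with a mean of at least 0.5 FPKM, with Benjamini-Hochberg adjusted p-values over all of them and a threshold of 0.05. Of the 8 members, 6 passed the filter on low values, and CXCL10 and CXCL11 did not. By limma, 0 of the 6 tested members rose or fell at that threshold, which 7 of all tested genes (0.058%) passed. At an unadjusted p under 0.05, 1 of the 6 passed, where 10.4% of all tested genes did. That member, CXCL1, was higher with LPS, as were 5.13% of all tested genes at that p. The LPS and control values did not overlap for 1 of the 6 (CXCL1 again), against 17.4% of all tested genes. By direction this was 1 of 6 higher, against 8.68%, and 0 of 6 lower, against 8.73%.

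**Figure D1:**
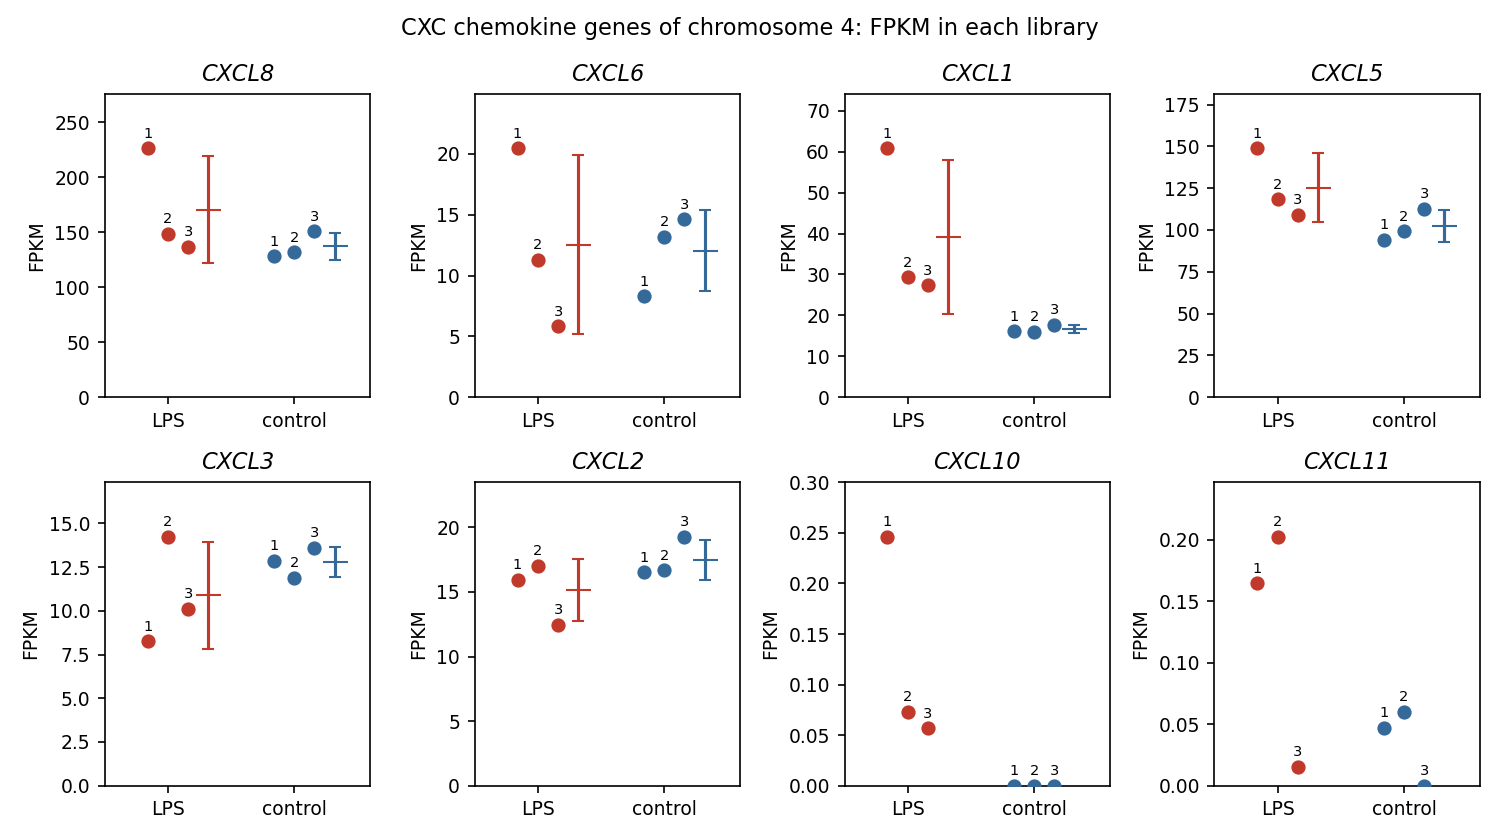
FPKM of each of the 8 genes in the 3 LPS libraries (red, left) and the 3 control libraries (blue, right), with replicate numbers above the points and, for the 6 tested genes, the mean ± SD as a bar at the side. Each panel has its own axis from 0; all 3 LPS values of CXCL1 lie above its control values, while CXCL10 and CXCL11 stay below 0.25 FPKM.

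CXCL8, the best known neutrophil chemoattractant, stood at 226, 149 and 137 FPKM in LPS libraries 1, 2 and 3, against 128, 132 and 151 FPKM in control libraries 1, 2 and 3. LPS 1 was the highest, and the other LPS values fell within the range of the controls. Its means were 171 ± 48.6 FPKM with LPS and 137 ± 12.3 FPKM in controls (SD, n = 3 each), and it ranked 213th by mean level among the 19755 genes. The log2 change on the log2(FPKM + 0.5) scale was 0.28 (SE 0.19, 95% interval −0.16 to 0.72, limma adjusted p = 0.644), and it was 0.06 without LPS 1. The interval covers folds from 0.898 to 1.65.

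CXCL5, an ELR chemokine that acts on CXCR2, was the next most abundant. It stood at 149, 118 and 109 FPKM in the LPS libraries and at 94.2, 99.3 and 113 FPKM in the control libraries. The groups overlapped, because LPS 3 lay below control 3. Its log2 change was 0.29 (SE 0.14, 95% interval −0.03 to 0.60, limma adjusted p = 0.519), and 0.16 without LPS 1. In each of the 6 libraries CXCL8 stood above CXCL5, and CXCL5 above every other member.

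CXCL1, the GRO-alpha chemokine that acts on CXCR2, stood at 60.9, 29.3 and 27.3 FPKM in the LPS libraries, against 16.2, 15.99 and 17.7 FPKM in the control libraries. All 3 LPS values were above all 3 control values, and LPS 1 was far above the other LPS libraries. The means were 39.1 ± 18.8 FPKM with LPS and 16.6 ± 0.948 FPKM in controls (SD, n = 3 each). The log2 change was 1.11 (SE 0.28, 95% interval 0.46 to 1.77), which is 2.17-fold with an interval from 1.37 to 3.41. Its limma p was 0.0047 unadjusted and 0.273 after adjustment over all tested genes, so CXCL1 was not among the genes past the threshold. Leaving out each library in turn gave log2 changes from 0.75 to 1.32, with limma adjusted p from 0.174 to 0.564. The lowest change and the lowest adjusted p both came without LPS 1.

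CXCL2 (GRO-beta) and CXCL3 (GRO-gamma), the near copies of CXCL1, showed no such separation. CXCL2 stood at 15.9, 17.0 and 12.5 FPKM in the LPS libraries and at 16.5, 16.7 and 19.3 FPKM in the control libraries. CXCL3 stood at 8.26, 14.2 and 10.1 FPKM in the LPS libraries and at 12.9, 11.9 and 13.6 FPKM in the control libraries. In both genes the groups overlapped. CXCL2 stood above CXCL1 in every control library and below it in every LPS library. The log2 changes were −0.21 for CXCL2 (SE 0.14, 95% interval −0.54 to 0.12, limma adjusted p = 0.652) and −0.26 for CXCL3 (SE 0.19, 95% interval −0.70 to 0.18, limma adjusted p = 0.687). Without single libraries the log2 change of CXCL2 lay between −0.30 (without LPS 2) and −0.08 (without LPS 3), with −0.14 without control 3. That of CXCL3 lay between −0.46 without LPS 2 (unadjusted p = 0.0154, limma adjusted p = 0.389) and −0.08 without LPS 1. In the fit of all 6 libraries the upper bounds correspond to folds of 1.09 and 1.14, below the lower bound of 1.37 for CXCL1. These are separate intervals without adjustment, set side by side after the values were seen, so they are no test between the genes. Reads assigned to the wrong near copy could also move these changes apart, which was not tested.

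CXCL6, an ELR chemokine that acts on both CXCR1 and CXCR2, had the widest spread relative to its mean among the 6 tested genes in the LPS group. It stood at 20.5, 11.3 and 5.85 FPKM in the LPS libraries and at 8.28, 13.2 and 14.7 FPKM in the control libraries. Both the highest and the lowest value belonged to LPS libraries. Its log2 change was −0.07 (SE 0.41, 95% interval −1.04 to 0.89, limma adjusted p = 0.965), and it was 0.01 without control 2, 0.08 without control 3 and 0.37 without LPS 3.

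**Figure D2:**
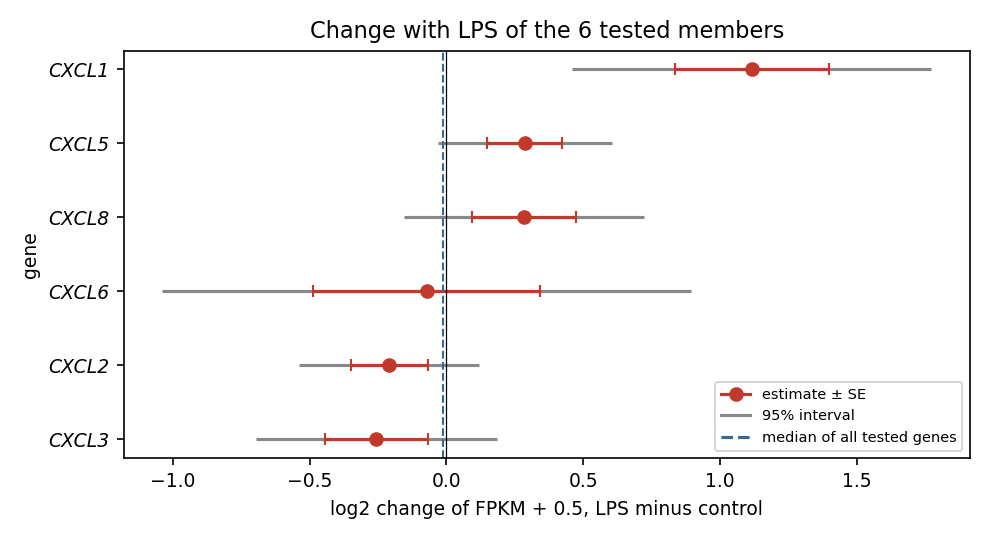
Log2 change of FPKM + 0.5, LPS minus control, for the 6 tested genes, with the standard error (red) and the 95% interval (grey) from limma over 3 LPS and 3 control libraries. CXCL1 stands at 1.11 with its interval above 0, the other 5 intervals include 0, and the dashed line is the median of all tested genes at −0.01.

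Over the 6 neutrophil-attracting genes the log2 change was positive in 3 and negative in 3, with a median of 0.11, against a median of −0.01 over all tested genes. The median was −0.01 without LPS 1 or without control 1, 0.22 without control 3 and 0.37 without LPS 3. Their summed level was 481, 339 and 302 FPKM in the LPS libraries and 276, 289 and 329 FPKM in the control libraries, and the groups overlapped. LPS 1 gave the highest value of CXCL8, CXCL6, CXCL1 and CXCL5 and the lowest value of CXCL3. Relative to the control mean, LPS 1 stood at 1.84 for CXCL1, 0.78 for CXCL6, 0.73 for CXCL8, 0.55 for CXCL5, −0.13 for CXCL2 and −0.60 for CXCL3 on the log2 scale. In LPS 3 the same differences were 0.70 for CXCL1, −0.94 for CXCL6, 0.0024 for CXCL8, 0.098 for CXCL5, −0.47 for CXCL2 and −0.32 for CXCL3.

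Each gene was also expressed as a share of the summed FPKM of the 8 members. The share of CXCL6 was 4.25%, 3.34% and 1.94% in the LPS libraries and 2.9995%, 4.56% and 4.45% in the control libraries. CXCL8 took 47.0%, 43.9% and 45.4% in the LPS libraries and 46.4%, 45.7% and 45.9% in the control libraries. CXCL5 took 30.9%, 34.9% and 36.1% in the LPS libraries and 34.1%, 34.3% and 34.3% in the control libraries. CXCL1 took 12.6%, 8.63% and 9.05% in the LPS libraries, above the 5.85%, 5.53% and 5.38% of the control libraries. CXCL2 took 3.31%, 5.03% and 4.14% in the LPS libraries, below the 5.98%, 5.77% and 5.86% of the control libraries. Shares sum to the whole, so a larger share of CXCL1 lowers those of the others.

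The ratio of CXCL1 to each other neutrophil-attracting gene was compared within libraries, a comparison chosen after its values were seen. CXCL1 over CXCL2 was 3.82, 1.72 and 2.19 in the LPS libraries and 0.979, 0.959 and 0.919 in the control libraries. CXCL1 over CXCL3 was 7.37, 2.06 and 2.70 in the LPS libraries and 1.26, 1.34 and 1.30 in the control libraries. Relative to CXCL8 the ratio averaged 0.222 ± 0.0408 with LPS and 0.122 ± 0.00449 in controls (SD, n = 3 each). All 5 such ratios were higher in every LPS library than in every control library. They share CXCL1, whose own values did not overlap, so they add no separate evidence. The two-sided exact permutation test gave p = 0.1 for each, also after adjustment over the 5 ratios, which is the smallest value that 3 libraries against 3 allow. The FPKM of CXCL1, CXCL2 and CXCL3 were also summed to 1 feature, which keeps reads exchanged among them in the feature. Since FPKM depends on gene length, this does not fully remove misassignment. The sum gave a log2 change of 0.44 (SE 0.19, limma adjusted p = 0.474, unadjusted p = 0.0478).

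CXCL10 and CXCL11, the interferon-type members, were at trace level. CXCL10 was listed at 0.246, 0.0731 and 0.0570 FPKM in the LPS libraries and at 0 in all 3 control libraries. The 3 LPS values thus lay above the controls, but all of them were under the 0.5 FPKM needed for testing. CXCL11 was listed at 0.164, 0.202 and 0.0154 FPKM in the LPS libraries and at 0.0472, 0.0602 and 0 FPKM in the control libraries, with overlap. In a table without counts a 0 can be a failed estimate, so no fold is given against it. Fitted without any filter, the limma adjusted p was 0.460 for CXCL10 and 0.625 for CXCL11.

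Set side by side, the 2 interferon-type genes held 0.0853%, 0.0813% and 0.0240% of the members' summed FPKM in the LPS libraries, and 0.0171%, 0.0208% and 0% in the control libraries. The neutrophil-attracting genes held the remainder in every library. By mean level CXCL11 ranked 13599th and CXCL10 13788th of the 19755 genes, while the lowest neutrophil-attracting gene, CXCL3, ranked 3665th. ART3, which overlaps both CXCL10 and CXCL11 on the opposite strand, was listed at 0, 0.0178 and 0 FPKM in the LPS libraries and at 0.127, 0.219 and 0.101 FPKM in the control libraries. Use of strand in the counting is not given in the sources used here. The overlap is one of gene spans, and overlap of exons was not checked. Whether reads of ART3 and of the chemokines were mixed was not tested.

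The transcripts of each gene were compared next, because the authors listed some of them as long noncoding RNA. The members had 22 listed transcripts, of which 15 had a mean of at least 0.5 FPKM and 8 stood in the authors' table of long noncoding transcripts. Of the 7 member transcripts tested in the protein-coding transcript table, limma called 0 past the threshold, where 0.126% of 20563 tested transcripts were called, and 1 (CXCL1-201) passed an unadjusted p under 0.05, as 6.44% of the table did. CXCL1-201, the coding transcript, stood at 59.1, 28.9 and 26.9 FPKM in the LPS libraries and at 14.5, 14.9 and 16.1 FPKM in the control libraries (log2 change 1.21, SE 0.32, limma adjusted p = 0.558). CXCL1-202, annotated as a processed transcript without coding sequence, stood at 1.75, 0.366 and 0.437 FPKM in the LPS libraries and at 1.63, 1.06 and 1.596 FPKM in the control libraries. The higher gene level of CXCL1 in LPS libraries therefore lay in its coding transcript.

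CXCL3 differed from the other members in that its coding transcript was the minor part. CXCL3-201 stood at 2.68, 2.85 and 2.63 FPKM in the LPS libraries and at 1.30, 2.56 and 2.33 FPKM in the control libraries, and every LPS value exceeded every control value (limma adjusted p = 0.828). CXCL3-204, a noncoding processed transcript, stood at 1.45, 2.61 and 1.15 FPKM in the LPS libraries and 3.78, 3.05 and 5.12 FPKM in the control libraries. The noncoding CXCL2-201 stood at 1.73, 1.91 and 2.11 FPKM in the LPS libraries and at 2.999, 3.29 and 5.22 FPKM in the control libraries, while the coding CXCL2-202 averaged 12.2 ± 2.70 FPKM with LPS and 12.2 ± 0.141 FPKM in controls (SD, n = 3 each). In a fit over all 35727 tested transcripts, added after the data were seen, limma gave adjusted p-values of 0.792 for CXCL3-204 and 0.762 for CXCL2-201, and called 0 member transcripts past the threshold, where 0.098% of the table were called, and 3 (CXCL1-201, CXCL3-204 and CXCL2-201) at an unadjusted p under 0.05, where 5.77% were.

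Expressed as a share of each gene's FPKM, transcripts of the authors' long noncoding table made up 2.87%, 1.25% and 1.599% of CXCL1 in the LPS libraries and 10.1%, 6.64% and 9.01% in the control libraries. For CXCL2 this share was 18.9%, 15.2% and 26.1% in the LPS libraries and 26.8%, 27.0% and 35.8% in the control libraries. For CXCL3 it was 67.6%, 80.0% and 74.1% in the LPS libraries and 89.9%, 78.5% and 77.5% in the control libraries, with overlap. The shares of CXCL1 and CXCL2 were lower in every LPS library than in every control library (two-sided exact permutation p = 0.1 each, the smallest possible, and 0.25 after adjustment over 5 genes). Of 3651 protein-coding genes that averaged 10 FPKM or more and had a transcript in that table, 5.48% showed such a lower share without overlap, against 2 of the 5 members with such transcripts, and 4.16% showed a higher share, against 0 of the 5. This comparison was chosen after values were seen, and StringTie estimates how reads divide between overlapping transcripts.

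**Figure D3:**
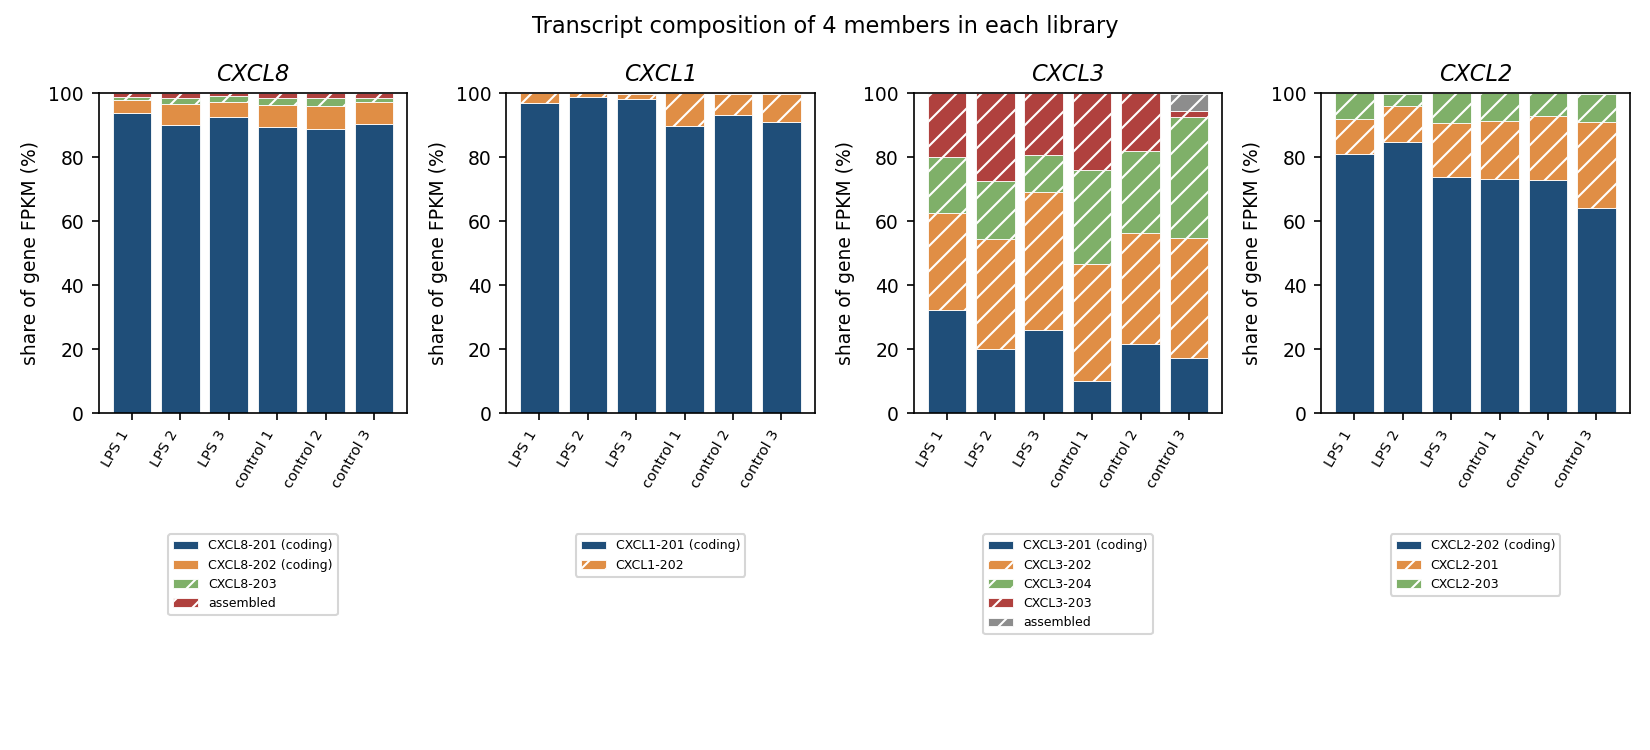
Share of the gene's FPKM (percent) taken by each transcript of CXCL8, CXCL1, CXCL3 and CXCL2 in the 3 LPS libraries (left bars) and the 3 control libraries (right bars); plain colours are transcripts of the authors' protein-coding table and hatched ones are not in it. CXCL1-202 takes 1.25% to 2.87% of CXCL1 in LPS libraries and 6.64% to 10.1% in control libraries, and CXCL3 is mostly hatched in every library.

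By the coordinates of the authors' table, which are on GRCh38, the members form 2 blocks on chromosome 4. CXCL8, CXCL6, CXCL1, CXCL5, CXCL3 and CXCL2 lie between positions 73740541 and 74099196, over 359 kb. CXCL10 and CXCL11 lie between 76021118 and 76041415, after a gap of 1922 kb. CXCL8 spans 73740541 to 73743716 and CXCL1 73869393 to 73871242, both on the plus strand, and CXCL5 spans 73995642 to 73998677 on the minus strand. The table gives CXCL3 an end at 74099195, inside CXCL2, because it includes an assembled transcript that was listed at 0.737 FPKM in control 3 and at 0 in the other 5 libraries.

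Within 100 kb of these blocks the table holds 9 other genes, of which 4 were tested, and limma called 0 of them past the threshold and 0 at an unadjusted p under 0.05. MTHFD2L, an enzyme of mitochondrial folate metabolism that borders CXCL2, averaged 2.29 ± 0.747 FPKM with LPS and 2.97 ± 0.573 FPKM in controls (SD, n = 3 each). NAAA, SDAD1 and NUP54, which flank CXCL10 and CXCL11, stood at 5.65 to 13.4 FPKM in LPS libraries and at 6.20 to 12.5 FPKM in control libraries. The platelet chemokine genes PF4, PPBP and PF4V1, which lie among the neutrophil-attracting members, reached at most 0.260 FPKM in LPS libraries and 0.332 FPKM in control libraries. CXCL9, the interferon-type gene next to CXCL10, and CXCL13, a B cell chemokine further along the chromosome, were listed at 0 in all 6 libraries.

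**Figure D4:**
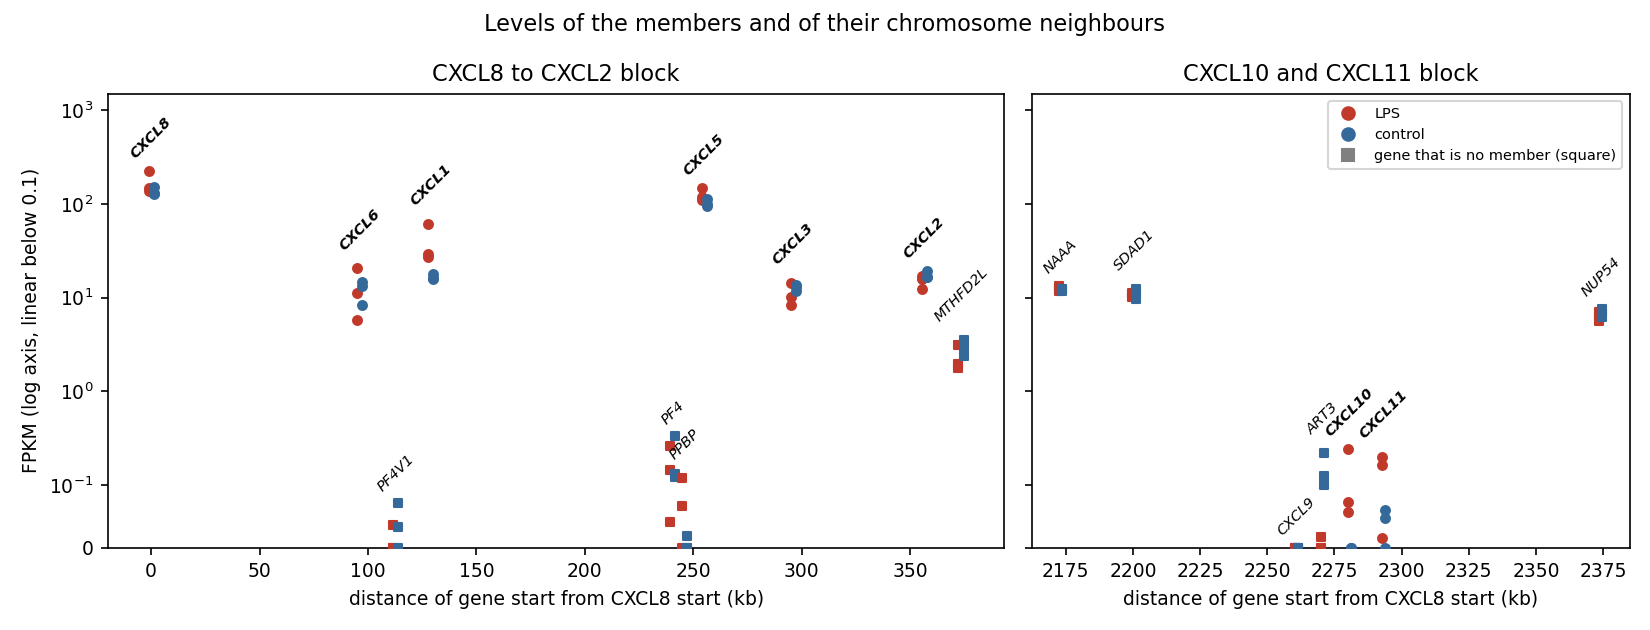
FPKM (log axis, linear below 0.1) of the members (circles, bold names) and of other protein-coding genes within 100 kb (squares) against the distance of the gene start from the start of CXCL8 in kb, with LPS libraries in red at the left of each pair and control libraries in blue. CXCL8 and CXCL5 stand above 90 FPKM beside PF4, PPBP and PF4V1 at under 0.4 FPKM, and CXCL9, CXCL10 and CXCL11 lie near 0 between neighbours expressed at 5.65 to 13.4 FPKM; points at 0 lie on the axis and may cover each other.

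Of the CXC genes on other chromosomes, 2 of 4 were tested. CXCL16, a membrane-anchored chemokine and scavenger receptor, stood at 3.78, 3.75 and 3.56 FPKM in the LPS libraries and at 2.72, 2.94 and 2.40 FPKM in the control libraries. CXCL12, the ligand of CXCR4, stood at 0.985, 0.895 and 0.554 FPKM in the LPS libraries and at 0.424, 0.407 and 0.162 FPKM in the control libraries. Both were higher in every LPS library, as were 8.68% of all tested genes. Their unadjusted limma p-values were 0.0164 and 0.0166, where 5.13% of all tested genes were higher at a p under 0.05. The limma adjusted p-values were 0.358 and 0.359, so neither passed the threshold. CXCL12, with a mean of 0.571 FPKM, lay just above the filter. CXCL14 reached at most 0.0670 FPKM and CXCL17 was listed at 0.

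The receptors that read the members on leukocytes were listed at or near 0. CXCR1 and CXCR2, which read the ELR chemokines, were listed at 0 in all 6 libraries, and CXCR3, which reads CXCL10 and CXCL11, reached at most 0.0143 FPKM. Of 9 receptor genes 3 were tested, and limma called 0 past the threshold and 0 at an unadjusted p under 0.05. CXCR4 averaged 7.60 ± 0.191 FPKM with LPS and 8.18 ± 1.58 FPKM in controls, CXCR6 0.746 ± 0.310 FPKM with LPS and 0.763 ± 0.0717 FPKM in controls, and ACKR1, an endothelial receptor that carries chemokines across the vessel wall, 0.893 ± 0.534 FPKM with LPS and 0.760 ± 0.383 FPKM in controls (SD, n = 3 each). ACKR3, a scavenger of CXCL12 and CXCL11, was listed at 0.750, 0.631 and 0.332 FPKM in the LPS libraries and at 0.0375, 0.159 and 0 FPKM in the control libraries, and its mean was too low for testing. CXCR5 reached at most 0.356 FPKM and ACKR2 at most 0.0777 FPKM.

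Genes of pathways known to act on chemokine genes were read from lists, and their part in the levels of the members was not tested. Of 14 NF-kB genes tested, limma called 0 past the threshold and 5 at an unadjusted p under 0.05 (RELA, RELB, NFKB2, NFKBIE and TNFAIP3, all higher with LPS), where 0.058% and 10.4% of all tested genes passed, 5.13% as higher at the unadjusted p, with a median log2 change of 0.12 against −0.01 over all tested genes. NFKB2 stood at 29.1, 23.3 and 23.2 FPKM in the LPS libraries and at 17.98, 18.1 and 15.9 FPKM in the control libraries (limma adjusted p = 0.255). The subunit RELA averaged 11.2 ± 1.07 FPKM with LPS and 7.70 ± 1.42 FPKM in controls, the inhibitor NFKBIA 52.5 ± 7.07 FPKM with LPS and 47.8 ± 4.90 FPKM in controls, and the inhibitor TNFAIP3 27.4 ± 6.12 FPKM with LPS and 20.3 ± 2.76 FPKM in controls (SD, n = 3 each). Of the cytokines that induce chemokine genes, 2 of 8 were tested and limma called 0. At an unadjusted p under 0.05 it called 1 (IL1B), where 10.4% of all tested genes passed. IL1B stood at 12.5, 8.17 and 21.2 FPKM in the LPS libraries and at 5.21, 3.44 and 5.27 FPKM in the control libraries (unadjusted p = 0.00282, limma adjusted p = 0.236). IL6 went the other way and averaged 6.49 ± 0.901 FPKM with LPS and 8.22 ± 1.04 FPKM in controls (SD, n = 3 each). Its LPS values (7.10, 6.91 and 5.45 FPKM) all lay below its control values (7.68, 9.42 and 7.56 FPKM), as in 8.73% of all tested genes (limma adjusted p = 0.503). IL1A reached at most 0.699 FPKM, and TNF at most 0.0881 FPKM.

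Of 13 interferon receptor, kinase and factor genes, all tested, limma called 0 past the threshold and 4 at an unadjusted p under 0.05 (IFNAR1, IRF7 and IRF9 among them), where 10.4% of all tested genes passed the unadjusted p, with a median log2 change of 0.19. The kinase JAK1 averaged 108 ± 13.5 FPKM with LPS and 98.5 ± 3.31 FPKM in controls, and the receptor chain IFNGR2 24.6 ± 1.76 FPKM with LPS and 22.8 ± 2.38 FPKM in controls (SD, n = 3 each). The interferons themselves were close to absent, with IFNB1 listed at 0.0633 FPKM in LPS 1 and at 0 elsewhere, and IFNG and IFNL1 at 0 in all libraries. Of 8 LPS receptor genes 7 were tested, and limma called 0 past the threshold and 1 (TICAM1) at an unadjusted p under 0.05, where 10.4% of all tested genes passed that p. TLR4, the LPS receptor, averaged 5.40 ± 1.37 FPKM with LPS and 6.97 ± 1.1996 FPKM in controls, its adaptor MYD88 10.1 ± 1.74 FPKM with LPS and 9.69 ± 1.08 FPKM in controls, and the adaptor TICAM1 8.82 ± 0.442 FPKM with LPS and 6.33 ± 0.705 FPKM in controls (SD, n = 3 each).

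Genes whose levels followed the members most closely were sought among 11191 other protein-coding genes with a mean of at least 1 FPKM. Likeness was Pearson's r over the 6 libraries with the mean standardized profile of each class, as a description without a test. The highest values for the neutrophil-attracting profile were 0.977 for ZBTB48, 0.974 for ADAM23, 0.972 for ZNF433, 0.970 for NBDY and 0.966 for TXNDC15. For the interferon-type profile, which rests on trace levels, they were 0.989 for BMI1, 0.978 for PANK4, 0.975 for PEAK1, 0.973 for SOCS1 and 0.973 for SUSD6. These are the highest of 11191 values, each over 6 libraries, and values this high can arise by chance in so large a search. All points come from the same 6 libraries.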

How the data were processed

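Gene and transcript levels are FPKM as deposited by the authors, in 5 tables of the 6 libraries. Per the submitters' processing notes, HISAT2 and StringTie were used (no version given). The build given there is mm9, a mouse assembly, while the tables carry human Ensembl identifiers at GRCh38 positions, and 95.1% of 61556 genes were found in GENCODE 29, the source of strands and transcript types. Groups came from the sample titles, because the treatment label is the same for all samples.

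Genes with a mean of at least 0.5 FPKM entered a limma fit (version 3.58.1, R 4.3.3) of log2(FPKM + 0.5) with the group alone in the model, eBayes with a mean-variance trend and two-sided p-values adjusted over the whole table. The procedure was also run on data simulated with independent normal noise, with the outcome not reported here. Such data hold no outlying library and no reads shared between near copies. Fold changes on this scale understate those of low genes. Intervals are at 95%. Exact permutation tests used scipy 1.17.1, and sequences were aligned with Biopython 1.88.

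All members are named, with the 3 most abundant genes of each list, all receptors and all other CXC genes, and genes outside this rule were named after their values were seen. Values of some listed genes are not reported here. Members and lists were chosen with earlier results of these data known. Alternatives were other pseudocounts, filters, scalings and models, each library left out, the 3 near copies summed and the table of all genes. Promoters are RefSeq's on GRCh38.p14, matched for 8 of 8 members.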

Additional observations from a re-analysis of the deposited data

How the results depend on the processing

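The count of members past the threshold was 0 under every alternative with an adjusted p, and 1 (CXCL1) at an unadjusted p under 0.05. The unadjusted count was 2 without a filter (with CXCL10), with library weights (with CXCL5), without LPS 2 (with CXCL3) and without LPS 3 (with CXCL5). The count of member transcripts past the threshold was 0 under every alternative. At an unadjusted limma p under 0.05 it was 1 in the main fit, 2 without a filter and 3 over all annotated and assembled transcripts. Of all protein-coding genes, 7 were past the adjusted threshold, and 1254 had an unadjusted p under 0.05. By limma the adjusted count was 0 without a filter (1563 unadjusted) and 0 with the replicate block (1451 unadjusted), and the cause was not tested. It lay between 0 and 8 over the fits that each omitted 1 library, at 4 without control 1, 0 without control 2 (1046 unadjusted), 0 without LPS 2 (1213 unadjusted) and 2 without LPS 3. CXCL5 and CXCL8 kept a positive log2 change under 17 alternatives, and CXCL1 a positive and CXCL2 and CXCL3 a negative one under the 16 that fitted them singly. CXCL6 (−0.07) turned to 0.21 with library weights and lay between −0.50 and 0.37 over the fits without 1 library. Over the same fits the median of the neutrophil-attracting genes lay between −0.01 and 0.37, and it was 0.29 with library weights and 0.28 with the 3 near copies summed. No median was had for CXCL10 and CXCL11, since neither was tested. Whether the replicate numbers pair the libraries is not known. Correlations of deviations were 0.0175, 0.105 and 0.0605 between same-numbered libraries. Between differently numbered ones they lay from −0.0840 to 0.0228, and 3 libraries per group cannot decide the question. The replicate block changed no call of a member. Unknown depth limits the statements on CXCL10 and CXCL11.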

Other observations

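Genes that act on chemokines after transcription were read from 2 further lists. Of 15 genes of chemokine presentation and cleavage, 14 were tested, and limma called 0 past the threshold and 4 at an unadjusted p under 0.05, where 0.058% and 10.4% of all tested genes passed. The 3 that were higher were MMP1, HSPG2 and GPC1. The collagenase MMP1 averaged 294 ± 47.2 FPKM with LPS and 186 ± 26.5 FPKM in controls, the heparan sulfate proteoglycan HSPG2 243 ± 22.8 FPKM with LPS and 196 ± 5.35 FPKM in controls, and GPC1 139 ± 6.03 FPKM with LPS and 120 ± 2.41 FPKM in controls (SD, n = 3 each). The 1 that was lower was DPP4, the protease that trims CXCL10 and CXCL11, at 2.59, 2.39 and 2.67 FPKM in the LPS libraries and 3.39, 4.28 and 5.57 FPKM in the control libraries (limma adjusted p = 0.310).

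Of 7 mRNA decay and stability genes, all tested, limma called 0 past the threshold and 3 at an unadjusted p under 0.05, where 10.4% of all tested genes passed the unadjusted p. ZC3H12A, an RNase that degrades inflammatory mRNAs, stood at 10.3, 7.14 and 8.76 FPKM in the LPS libraries and at 5.25, 5.01 and 5.51 FPKM in the control libraries (limma adjusted p = 0.236). ZFP36, which binds AU-rich elements and promotes decay, stood at 11.6, 19.0 and 10.6 FPKM in the LPS libraries and at 18.1, 24.5 and 25.3 FPKM in the control libraries, with overlap (limma adjusted p = 0.351). The third, ZFP36L2, averaged 21.0 ± 4.31 FPKM with LPS and 27.2 ± 2.53 FPKM in controls, the abundant KHSRP 72.8 ± 6.47 FPKM with LPS and 71.1 ± 3.27 FPKM in controls, and ZFP36L1 35.3 ± 11.3 FPKM with LPS and 44.6 ± 18.7 FPKM in controls (SD, n = 3 each).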
